A study of Mus musculus with 10 samples.

Results

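The genes of antigen presentation on major histocompatibility complex (MHC) class II were examined in tumour-associated macrophages from mice given vehicle or a glutamine antagonist. The members are 10 genes chosen by name, H2-Aa, H2-Ab1, H2-Eb1, H2-DMa, H2-DMb1, H2-DMb2, Cd74, Ciita, Ifi30 and Lgmn. All 10 were found among the 46957 loci of each table, each at 1 locus, and all 10 passed the filter on low counts that left 12500 loci for testing. RNA was sequenced from 10 samples, 5 in each group. BALB/cJ mice carried 4T1 tumours, a mouse breast cancer line, after injection of 100000 cells into the mammary fat pad. Control mice received PBS, and treated mice received JHU083, a prodrug of the glutamine analogue 6-Diazo-5-oxo-L-norleucine, at 1 mg/kg on days 7 to 13. Tumours of both groups were taken on day 14, and viable cells of the phenotype CD45+CD11b+F4/80+CD8-Ly6C-Ly6G- were sorted. The labels give no age or sex of the mice and do not say whether a sample is 1 mouse or a pool, so the p-values measure the spread between these samples.

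MHC class II molecules are heterodimers that carry peptides from the endosomal pathway to the cell surface, where CD4 T cells read them. H2-Aa and H2-Ab1 encode the alpha and beta chains of the I-A dimer, and H2-Eb1 encodes the beta chain of I-E. Cd74 encodes the invariant chain, which fills the groove of new dimers until it is cut away in endosomes. H2-DMa, H2-DMb1 and H2-DMb2 encode chains of H2-M, which exchanges the last fragment of the invariant chain for peptide. Ifi30 (a thiol reductase) and Lgmn (an asparaginyl endopeptidase) unfold and cut proteins in endosomes and lysosomes. Ciita encodes the transactivator that is recruited to class II promoters and sets their activity.

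The promoters of class II genes share a module that is read by the RFX complex at an X box and by the NF-Y complex at a Y box, and Ciita acts through both. Promoter windows from RefSeq (GRCm38.p6, from 250 bases before to 50 after a gene's start) were at hand for 7 of the 10 genes, in 9 windows. The following stretches of 4 genes are the last 130 bases before the RefSeq start, on the gene's strand. They are shown because of the matches in their windows. The windows of 3 genes held an X box and a Y box match. That of H2-Aa held a Y box match and a palindrome but no match to the letters used here for the X box. The lack of a match to these letters does not show that an X box is absent. For H2-DMb1 and H2-DMb2 the GENCODE gene models given below begin further upstream than these RefSeq starts, so that most of the H2-DMb1 stretch and all of the H2-DMb2 stretch lie inside those models. Capitals mark matches on either strand to ATTGG, the core of the Y box, to the 11 letters used here for the X box, which allow any base between AAC and GATGATG, or to the palindrome TGACGTCA, found before the Y box match in H2-Aa. These motifs were chosen after the members' values were seen, and their matches do not overlap one another here.
H2-Eb1, chr17:34305737-34305866, plus strand: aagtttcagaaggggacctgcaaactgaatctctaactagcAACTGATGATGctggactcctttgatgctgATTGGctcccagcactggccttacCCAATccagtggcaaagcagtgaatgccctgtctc
H2-DMb1, chr17:34153061-34153190, plus strand: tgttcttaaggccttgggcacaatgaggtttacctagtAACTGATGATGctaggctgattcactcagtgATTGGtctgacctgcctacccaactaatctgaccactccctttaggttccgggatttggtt
H2-DMb2, chr17:34145119-34145248, plus strand: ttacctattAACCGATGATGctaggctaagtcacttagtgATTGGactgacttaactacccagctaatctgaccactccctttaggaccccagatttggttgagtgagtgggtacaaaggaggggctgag
H2-Aa, chr17:34287824-34287953, minus strand: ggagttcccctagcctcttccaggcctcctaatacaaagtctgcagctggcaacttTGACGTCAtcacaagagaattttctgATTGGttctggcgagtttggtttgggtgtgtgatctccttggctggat
The letters between the X box match and the first ATTGG numbered 19 in H2-Eb1, 20 in H2-DMb1 and 20 in H2-DMb2, and 18 lay between the palindrome and ATTGG in H2-Aa. ATTGG is common, with a match in 37.4% of the 32851 RefSeq windows of this length, whereas the X box letters were matched in 0.0609% (20 windows) and TGACGTCA in 1.79%. Within the X box letters the 3 members differ only at the base left free, so these shares are no test of their matches. The windows of Ifi30, Lgmn and H2-DMa held no match to the X box letters or TGACGTCA. Both windows of H2-DMa lie inside its GENCODE gene model, downstream of that model's start, which was not searched. A match is a description of these letters only.

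The class II transcripts were among the most abundant in the sorted cells. Levels of different genes were compared as FPKM, which is scaled to transcript length. Cd74 was the highest member in each of the 10 samples, with 5812 ± 699 FPKM in vehicle and 5758 ± 704 FPKM in JHU083 (SD, n = 5), above 99.9% of the detected loci. H2-Eb1 (1906 ± 124 and 1970 ± 245 FPKM, SD, n = 5) and Lgmn (1723 ± 154 and 2053 ± 158 FPKM, SD, n = 5) came next and did not differ in order beyond their spread, since H2-Eb1 was the higher in 6 of 10 samples. H2-Aa followed at 978 ± 90.8 and 1067 ± 133 FPKM (SD, n = 5), above Ifi30 in each of the 10 samples although the ranges of these 2 genes over all samples overlapped. H2-DMa (497 ± 46.2 and 481 ± 50.8 FPKM, SD, n = 5) and H2-Ab1 (496 ± 44.7 and 453 ± 58.2 FPKM, SD, n = 5) could not be ordered, each being the higher in 5 of 10 samples. H2-DMb2 and H2-DMb1 were lower, with means over all samples of 201 and 163 FPKM. The transactivator Ciita was by far the least abundant, with 9.78 to 12.1 FPKM in vehicle and 9.25 to 14.0 FPKM in JHU083. The reference genome is that of C57BL/6J, whose MHC haplotype differs from that of BALB/cJ, and how far this lowers the levels of the polymorphic chains was not tested.

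Libraries held 11147864 to 15740696 fragments. A pair of ribosomal loci, Rn18s-rs5 and Gm42418, had no fragments in 5 samples (3 of vehicle, 2 of JHU083). The calls of members and named pathway genes that are lost within these smaller sets of samples are given below. The calls of the marker genes were not examined within these sets. The 10 macrophage markers examined, such as Adgre1, Csf1r and C1qa, summed to between 18992 and 24177 CPM (fragments of a gene scaled to the effective library size) in vehicle samples, and to between 23888 and 31853 CPM in JHU083 samples. Of these 10 markers 4 rose (Adgre1, Csf1r, Mertk and Lyz2) and 0 fell, where 18.4% of all tested loci rose and 18.3% fell, the shares to set beside each marker count that follows. Markers of other cells that present on class II summed to far less. The lists hold different genes, so their sums do not give the shares of cells. The 12 dendritic cell markers summed to 54.6 to 79.5 CPM in vehicle and 41.5 to 65.9 CPM in JHU083, with 9 to 25 fragments of Flt3 in any library; of the 9 that could be tested, 1 rose (Cd209a) and 1 fell (Fscn1). The 10 B cell markers summed to 69.7 to 92.5 CPM and to 86.1 to 102 CPM. Ms4a1 and Pax5 had at most 3 and 4 fragments in any library, while most of the sum came from Cd22 (395 to 464 fragments in vehicle, 764 to 1102 in JHU083) and Ighm (366 to 817 and 233 to 445). Of the 3 that could be tested Cd79b and Cd22 rose and Ighm fell. T and NK cell markers summed to 27.5 to 30.5 CPM and to 37.2 to 55.3 CPM, with at most 10 fragments of Cd3e; of the 2 that could be tested Cd4 rose, from a mean of 14.7 to 31.8 CPM. Neutrophil markers summed to 33.5 to 46.0 CPM and to 12.8 to 61.2 CPM, with 0 of 3 tested higher and S100a8 (log2 fold change -1.40) and S100a9 (-2.18) lower. Monocyte markers summed to 326 to 395 CPM and to 296 to 531 CPM; of 5 tested, Chil3 rose (2.08) and Vcan fell (-1.06). No marker was at 0 in every library. All 8 tumour epithelial markers fell, from a sum of 297 to 648 CPM in vehicle to 103 to 219 CPM in JHU083, while the 10 class II genes summed to 13234 CPM or more in every sample. The part of these other cells in the results was not tested.

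Treatment left most of the class II genes within the spread between samples. Of the 10 members, 1 fell (Ifi30), 0 rose and 9 did not pass an adjusted p of 0.05 by edgeR's quasi-likelihood test, adjusted over all 12500 loci. Over those loci 36.7% passed, 18.4% higher and 18.3% lower. At a change of at least 0.5 on the log2 scale 0 of the 10 members passed, against 9.0% of loci higher and 10.7% lower. The median log2 fold change was -0.06 over the 10 members and 0.01 over all tested loci. A curve of GC content and length, removed in an alternative fit, was -0.22 to -0.09 for the 10 members (log2, JHU083 minus vehicle). In that fit H2-Ab1, H2-DMa, H2-DMb2 and Cd74 changed sign, from below to above 0. The standard errors of the members lay between 0.08 and 0.12 on the log2 scale, which sets the width of the intervals below. Fewer cells of a type and less RNA per cell cannot be told apart in such samples.

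**Figure D1:**
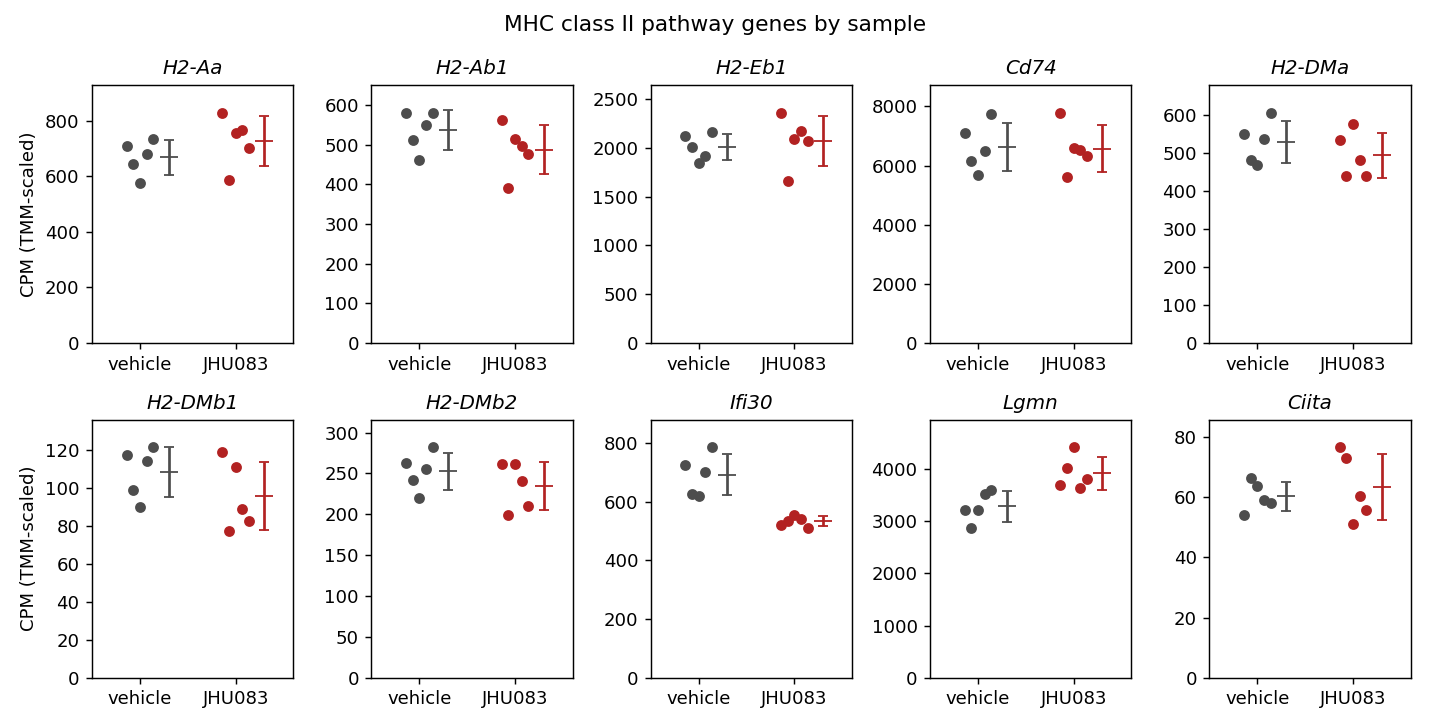
CPM (TMM-scaled) of the 10 members in each sample, with vehicle in grey and JHU083 in red; the bars give the mean and SD of 5 samples, and each axis starts at 0. Ifi30 is lower in each JHU083 sample (511 to 556 CPM) than in any vehicle sample (619 to 786 CPM), Lgmn is higher, and the groups overlap for the other 8 genes.

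Ifi30 encodes the lysosomal thiol reductase that opens disulfide bonds of proteins taken up by the cell, and it is known as an interferon-gamma-inducible gene. It had 726, 626, 619, 701 and 786 CPM in vehicle replicates 1 to 5 and 522, 535, 556, 541 and 511 CPM in JHU083 replicates 1 to 5. Every JHU083 sample lay below every vehicle sample, as was the case for 11.1% of all tested loci, and the JHU083 samples lay close together. Ifi30 fell by 0.38 ± 0.08 on the log2 scale (SE, 95% interval -0.54 to -0.21, adjusted p = 0.00184 by edgeR), to a level of 0.77 of that in vehicle. Among the 5 samples in which the ribosomal loci were listed at 0 the difference was -0.38, and among the other 5 it was -0.36; in these smaller sets it did not pass (adjusted p = 0.101 and 0.0542). It stayed between -0.41 and -0.33 when any single sample was left out, and passed in all 10 of those fits. With a curve of GC content and length removed from each sample it was smaller, at -0.23 (adjusted p = 0.0169). Ifi30 lies on chromosome 8 (70762774 to 70766663, GRCm38, minus strand), where its exons share 85 bases with 6330537M06Rik on the other strand.

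Lgmn encodes legumain, the asparaginyl endopeptidase of lysosomes, which makes early cuts in antigens and in the invariant chain. It had 3212, 2865, 3223, 3532 and 3602 CPM in vehicle replicates 1 to 5 and 3705, 4016, 4418, 3635 and 3818 CPM in JHU083 replicates 1 to 5. Every JHU083 sample lay above every vehicle sample, as for 11.2% of tested loci, but the gap between the groups was small. The log2 difference was 0.25 ± 0.10 (SE, 95% interval 0.03 to 0.47), with an edgeR adjusted p of 0.0679, just short of the threshold. DESeq2 (adjusted p = 0.00884) and 5 further alternatives out of 13 placed it past the threshold. It passed in 0 of the 10 fits that left out a sample (edgeR adjusted p from 0.0685 to 0.161). Lgmn lies on chromosome 12 (102394084 to 102439813, minus strand).

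The chains of the I-A dimer did not pass the test, with differences of opposite sign. H2-Aa had 708, 646, 575, 681 and 735 CPM in vehicle replicates 1 to 5 and 830, 587, 755, 766 and 703 CPM in JHU083 replicates 1 to 5. H2-Ab1 had 581, 512, 463, 551 and 582 CPM in vehicle and 562, 392, 515, 496 and 476 CPM in JHU083, in the same order. For each gene the groups overlapped, and vehicle replicate 3 and JHU083 replicate 2 were the lowest of their groups. The log2 difference was 0.12 for H2-Aa (95% interval -0.09 to 0.33, edgeR adjusted p = 0.341) and -0.14 for H2-Ab1 (95% interval -0.34 to 0.07, adjusted p = 0.271). As ratios of JHU083 to vehicle the intervals ran from 0.94 to 1.26 for H2-Aa and from 0.79 to 1.05 for H2-Ab1. With the GC and length curve removed, H2-Aa passed (0.23, adjusted p = 0.041) and H2-Ab1 changed sign (0.08, adjusted p = 0.417). H2-Aa (34282744 to 34287823, minus strand) and H2-Ab1 (34257689 to 34269419, plus strand) are neighbours on chromosome 17.

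H2-Eb1, the beta chain of I-E, and Cd74, the invariant chain, had the smallest differences of the members in the main edgeR fit. H2-Eb1 had 2120, 2010, 1841, 1917 and 2163 CPM in vehicle replicates 1 to 5 and 2361, 1658, 2088, 2173 and 2075 CPM in JHU083 replicates 1 to 5. Cd74, whose locus also lists the microRNA gene Mir5107, had 7107, 6150, 5669, 6498 and 7742 CPM in vehicle and 7792, 5601, 6594, 6524 and 6323 CPM in JHU083. In both genes JHU083 replicate 1 was the highest of its group and JHU083 replicate 2 the lowest, and the groups overlapped. The log2 difference was 0.04 for H2-Eb1 (95% interval -0.18 to 0.27, edgeR adjusted p = 0.773) and -0.01 for Cd74 (95% interval -0.28 to 0.25, adjusted p = 0.939). With the GC and length curve removed the differences were 0.14 for H2-Eb1 (adjusted p = 0.223) and 0.19 for Cd74 (adjusted p = 0.133). In that fit H2-Ab1 and the H2-M genes had smaller differences than either. H2-Eb1 lies at 34305867 to 34316674 on chromosome 17 and Cd74 at 60803848 to 60812652 on chromosome 18.

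The 3 genes of the peptide exchanger H2-M each had a lower mean with JHU083 and did not pass the test. H2-DMa had 550, 481, 468, 538 and 606 CPM in vehicle replicates 1 to 5 and 534, 439, 575, 482 and 439 CPM in JHU083 replicates 1 to 5, a log2 difference of -0.10 (95% interval -0.30 to 0.10, edgeR adjusted p = 0.435). H2-DMb1 had 117, 99.2, 90.2, 114 and 122 CPM in vehicle and 119, 77.6, 111, 89.3 and 82.8 CPM in JHU083, a difference of -0.18 (95% interval -0.44 to 0.09, adjusted p = 0.271). H2-DMb2 ranged from 221 to 282 CPM in vehicle and from 199 to 262 CPM in JHU083, a difference of -0.11 (95% interval -0.31 to 0.09, adjusted p = 0.388). With the GC and length curve removed these differences were 0.053, -0.035 and 0.015, in the same order of genes, so that H2-DMa and H2-DMb2 changed sign. In H2-DMb1, 3 JHU083 samples lay below every vehicle sample and the other 2 lay among them. H2-DMb1 and H2-DMb2 are adjacent copies on chromosome 17 (34153072 to 34160230 and 34143307 to 34151555). Of the 50-base windows of the H2-DMb1 transcript, 26.6% also occurred in that of H2-DMb2, so fragments may have been shared between the 2 genes and their separate values are uncertain. The exons of H2-DMa (34119541 to 34139101) share 360 bases with those of Brd2 on the other strand, and the labels name a kit that is not described as keeping strand.

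Ciita, on chromosome 16 (10480059 to 10528418), had 54.1, 66.4, 63.8, 58.9 and 58.2 CPM in vehicle replicates 1 to 5 and 76.6, 73.1, 51.0, 60.5 and 55.8 CPM in JHU083 replicates 1 to 5. The JHU083 samples spread on both sides of the vehicle samples, with 2 above them all and 1 below them all. The log2 difference was 0.07 (95% interval -0.16 to 0.31, edgeR adjusted p = 0.631). With the GC and length curve removed it was 0.16 (edgeR adjusted p = 0.114). Ciita is transcribed from several promoters used by different cell types, which values per gene do not separate, and its exons share 329 bases with those of Dexi on the other strand.

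Although neither chain of I-A passed the test alone, the ratio of H2-Aa to H2-Ab1 differed between the groups. The log2 ratio of their CPM was 0.29, 0.33, 0.31, 0.31 and 0.34 in vehicle replicates 1 to 5 and 0.56, 0.58, 0.55, 0.63 and 0.56 in JHU083 replicates 1 to 5. The groups did not overlap, and the means (0.32 ± 0.02 and 0.58 ± 0.03, SD, n = 5) differed by 0.26, many times the SD of either group. The scaling of the libraries cancels in this ratio. The chains differ in base composition, with 57.3% GC in the H2-Ab1 transcript and 51.0% in that of H2-Aa; with a curve of GC content and length removed from each sample the difference between the 2 log2 fold changes was 0.14, against 0.26 without. The log2 ratio of H2-Eb1 to H2-Ab1 was at least 2.02 in every JHU083 sample and at most 1.99 in every vehicle sample, a mean difference of 0.18, and 0.06 with the GC and length curve removed.

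**Figure D2:**
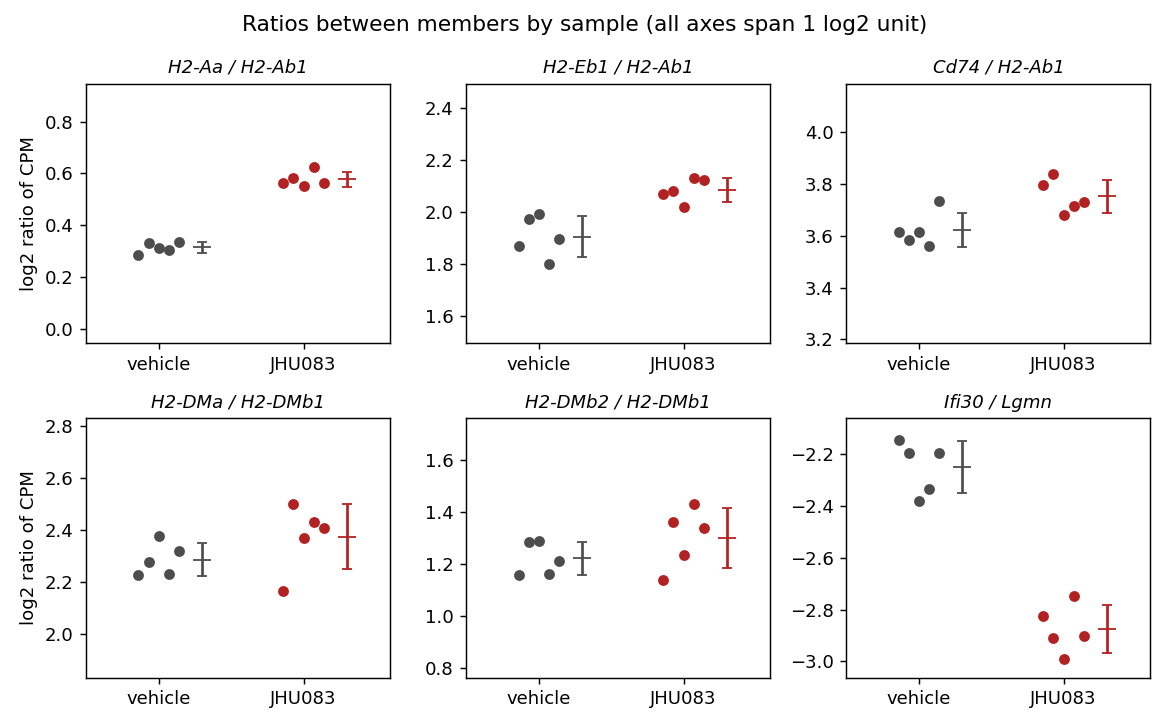
Log2 ratio of the CPM of 2 members in each sample, vehicle in grey and JHU083 in red, with the mean and SD of 5 samples; every axis spans 1 log2 unit. The ratios of H2-Aa to H2-Ab1, H2-Eb1 to H2-Ab1 and Ifi30 to Lgmn separate the groups completely, and the other 3 overlap.

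The remaining ratios varied more within groups or overlapped between them. Cd74 to H2-Ab1 had a log2 ratio of 3.56 to 3.74 in vehicle and 3.68 to 3.84 in JHU083. Within H2-M, the log2 ratios of H2-DMa and of H2-DMb2 to H2-DMb1 were higher by 0.09 and 0.08 on average, with SDs of 0.13 and 0.11 among the JHU083 samples. The ratio of Ifi30 to Lgmn fell from -2.25 ± 0.10 to -2.88 ± 0.09 (log2, SD, n = 5), with no overlap; each of these genes had itself been seen to separate the groups.

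The class II chains, Cd74 and the H2-M genes rose and fell together from sample to sample within each group. For all 7 genes vehicle replicate 5 was the highest and vehicle replicate 3 the lowest of the vehicle samples, with deviations from the group mean of 0.11 to 0.23 and of -0.26 to -0.12 on the log2 CPM scale. In the JHU083 group replicate 2 was the lowest for all 7 genes, at -0.31 to -0.16, and replicate 1 was the highest for 5 of them and replicate 3 for the other 2. Both lowest samples are among the 5 with ribosomal loci above 0. In every vehicle replicate Ciita lay on the other side of its group mean from most of the 7 genes. Its deviations were -0.15, 0.14, 0.09, -0.03 and -0.05 in vehicle replicates 1 to 5. In the JHU083 group Ciita followed the order of the 7 genes in some samples and not in others. It was high with the 7 genes in JHU083 replicate 1, at 0.29 above its group mean, and low with most of them in JHU083 replicate 5, at -0.17. In vehicle replicate 3, where all 7 genes were lowest, Ciita was 0.09 above its group mean, and in JHU083 replicate 2 it was 0.22 above, while in JHU083 replicate 3 it was 0.30 below its mean and the 7 genes were 0.01 to 0.23 above theirs. Ifi30 shared the extremes of the 7 genes in vehicle, with replicate 5 highest (0.19) and replicate 3 lowest (-0.15), and varied little in JHU083 (-0.06 to 0.06). Lgmn was also highest in vehicle replicate 5 (0.14), but its lowest vehicle sample was replicate 2 (-0.19). These are descriptions of 10 samples. Over all tested loci, the deviations of vehicle replicate 3 correlated best, among the JHU083 samples, with those of replicate 2. Whether the shared order is particular to these genes was not tested.

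**Figure D3:**
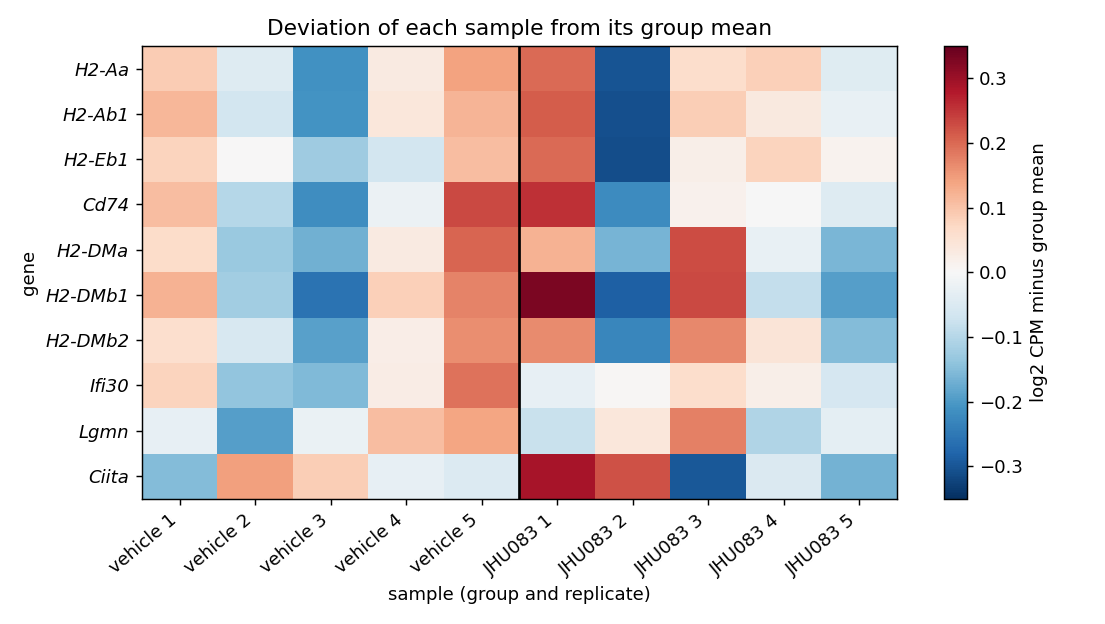
Log2 CPM of each gene minus its mean in the group, for each sample (columns, vehicle left of the line and JHU083 right of it); red is above and blue below the group mean. The upper 7 rows share their pattern, with vehicle 3 and JHU083 2 low throughout, the Ifi30 row shares it in vehicle, and the Ciita row departs from it in both of these samples.

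Of the tested loci, the 5 whose level ran closest to that of H2-Ab1, by the smallest SD over the 10 samples of the log2 difference between the 2 genes, were Sod2 (0.05), Scimp (0.06), Bud31 (0.06), H2-DMb2 (0.07) and Gm26825 (0.07). The median of this SD over all tested loci was 0.31, and H2-Ab1 itself varied with an SD of 0.18. Sod2 encodes the mitochondrial superoxide dismutase, and Scimp encodes an adaptor protein that associates with MHC class II at the surface of antigen-presenting cells. Cd74 came at rank 34, H2-Eb1 at 125 and H2-Aa at 548 by this measure, which also counts a difference between the groups, and Ciita at 5828.

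Of 10 other chains and regulators of class II surface expression that were found, 9 could be tested, of which 4 rose and 1 fell (18.4% and 18.3% of all tested loci), with a median log2 fold change of 0.23. The alpha chain of I-E, annotated in this reference as H2-Ea-ps because C57BL/6J does not express it while BALB/c does, averaged 1288 ± 35.5 CPM without and 1694 ± 218 CPM with the drug (SD, n = 5) and rose by 0.39 ± 0.10 on the log2 scale (SE, edgeR adjusted p = 0.00613). March1, an E3 ubiquitin ligase that sends surface class II and CD86 to degradation, rose from 68.9 ± 6.24 to 112 ± 17.1 CPM (SD, n = 5, log2 fold change 0.70, adjusted p = 0.000196). The tetraspanins Cd63 (0.41) and Cd82 (0.23), which reside in the compartments where peptides are loaded, rose as well, Cd82 narrowly (adjusted p = 0.047). H2-Oa, the alpha chain of H2-O, which inhibits H2-M, was low, with 23 to 28 fragments in vehicle and 13 to 26 in JHU083, and fell by 0.63 on the log2 scale (adjusted p = 0.0497). Cd82 and H2-Oa lost their calls in 8 of the 10 leave-one-out fits, and H2-Oa also with the GC and length curve removed (-0.43, adjusted p = 0.1545). Within the 5 samples with ribosomal loci at 0 and within the other 5, March1 passed in both, H2-Ea-ps passed in the first (0.51, adjusted p = 0.0308) and not in the second (0.32, adjusted p = 0.127), and Cd63, Cd82 and H2-Oa passed in neither.

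**Figure D4:**
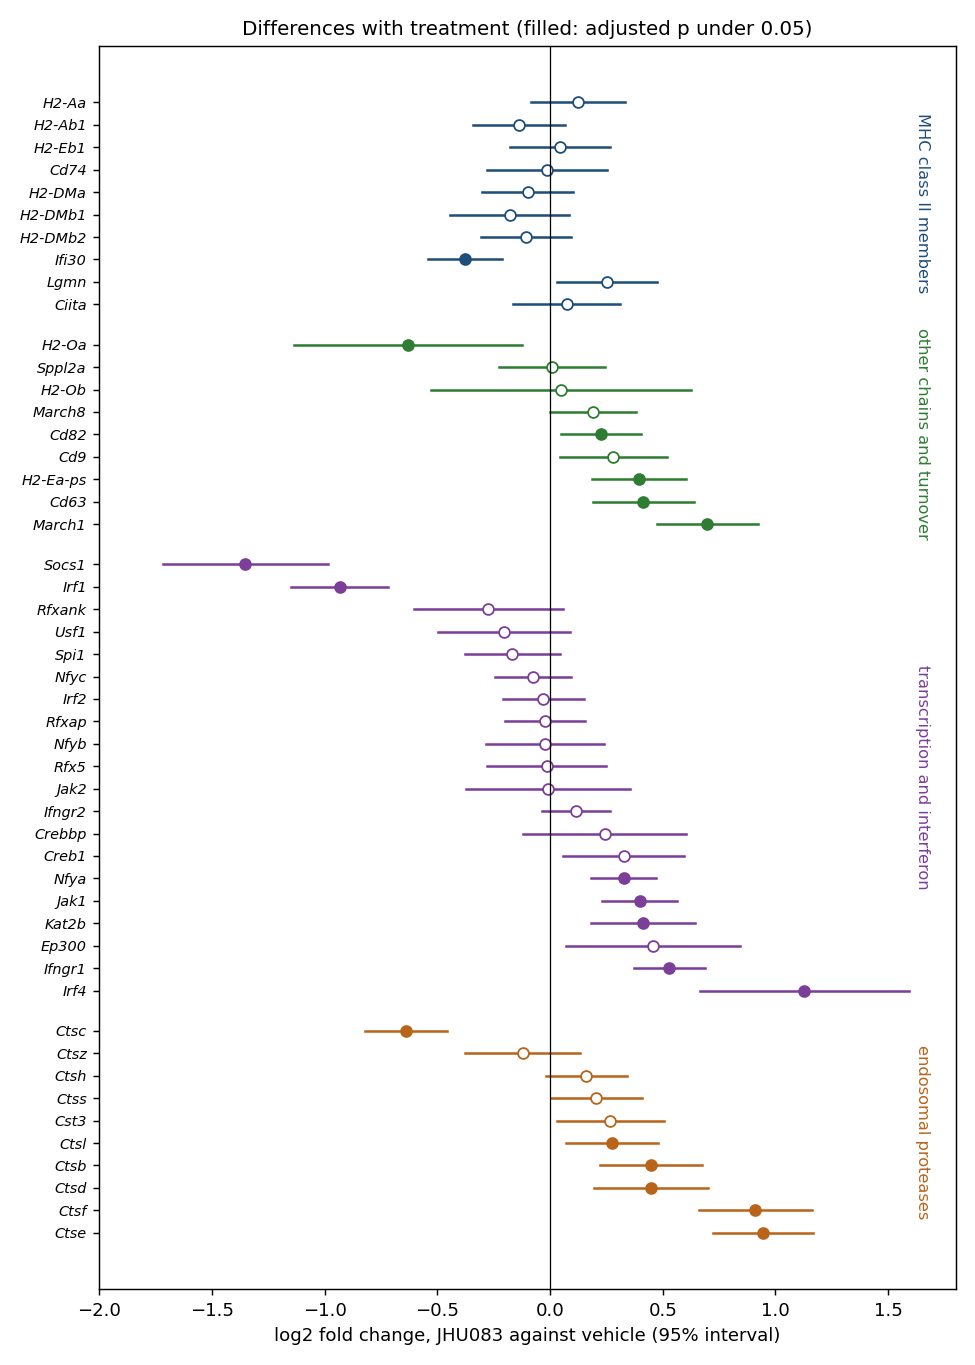
Log2 fold change with its 95% interval of the 10 members and of tested genes of the 3 other lists; filled points passed an adjusted p of 0.05. Among the members Ifi30 alone is filled, while Socs1 and Irf1 lie left of -0.9 and Irf4 lies right of 1.

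Among factors upstream of class II transcription, 5 of 21 rose and 3 fell, with a median of -0.01. That is close to the share over all tested loci, of which 36.7% passed in either direction. Among those that fell were Irf1 and Socs1, genes of the response to interferon gamma, which is known to induce Ciita. Irf1, a transcription factor that acts on the inducible Ciita promoter, fell from 182 ± 17.1 to 95.1 ± 14.0 CPM (SD, n = 5, log2 fold change -0.93, edgeR adjusted p = 1.58e-05). Socs1, a feedback inhibitor of JAK kinases, fell by 1.35 on the log2 scale. The receptor chain gene Ifngr1 (0.53) and the kinase gene Jak1 (0.40) rose. Irf4 rose from 8.91 ± 2.52 to 19.5 ± 6.01 CPM (SD, n = 5, log2 fold change 1.13, adjusted p = 0.00123), and Nfya, a subunit of NF-Y, and Kat2b, an acetyltransferase that acts on Ciita, rose by 0.33 and 0.41. The RFX subunit genes did not pass the test, with differences of -0.01 for Rfx5, -0.02 for Rfxap and -0.27 for Rfxank. Irf1, Socs1 and Ifngr1 passed within each set of 5 samples. Irf4 was 0.72 (adjusted p = 0.0662) where the ribosomal loci were at 0 and 1.31 (adjusted p = 0.00617) where they were not, Jak1 and Kat2b passed in the latter set alone (adjusted p = 0.117 and 0.358 in the former), and Nfya passed in neither.

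Of 10 genes for endosomal proteases and their inhibitor cystatin C, 5 rose and 1 fell, where 18.4% and 18.3% of all tested loci did, with a median log2 fold change of 0.27. Ctsb rose from 5018 ± 392 to 6839 ± 499 CPM (SD, n = 5, log2 fold change 0.45, edgeR adjusted p = 0.00492). Ctsf and Ctse, low in vehicle at 58.2 and 33.0 CPM, rose by 0.91 and 0.94 on the log2 scale, Ctsd by 0.45 and Ctsl by 0.28. The Ctsl call (adjusted p = 0.0356) was lost in 6 of the 10 leave-one-out fits and with the GC and length curve removed (0.19, adjusted p = 0.294). Within the sets of 5 samples Ctsf, Ctse and Ctsc passed in both, Ctsb did not where the ribosomal loci were at 0 (0.47, adjusted p = 0.0769), and Ctsd and Ctsl passed in neither. Ctss, whose protease makes the last cuts in the invariant chain, averaged 3235 ± 157 CPM without and 3732 ± 250 CPM with the drug (SD, n = 5, log2 difference 0.21, adjusted p = 0.0996). It passed in 4 of 13 alternatives, among them DESeq2 (adjusted p = 0.00775), and in 1 of the 10 leave-one-out fits. Ctsc, a dipeptidyl peptidase that activates granule proteases, fell from 3019 ± 111 to 1937 ± 95.4 CPM (SD, n = 5, log2 fold change -0.64, adjusted p = 8.06e-05).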

How the data were processed

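The members and gene lists were chosen with earlier results of these data known. Per the submitters' processing notes, bcl2fastq 2.17.1.14, FastQC 0.11.2, TopHat2 2.1.1 and GRCm38 were used; the counting program and annotation are not given in the sources used here. The authors deposited, per sample, a column headed as raw counts whose values are not whole (expected counts here) and a normalized column, read from its values as FPKM. Expected counts were whole multiples of a step per sample (0.888 to 1.17) for 98.4% to 99.9% of positive values (within 0.05); they were divided by it and rounded, an inference from the values. The 1 unnamed locus was left out. Encoded symbols were decoded and split at commas. JHU083 was compared with vehicle by edgeR 4.0.16 (filterByExpr, TMM, quasi-likelihood F-test, Benjamini-Hochberg at 0.05; R 4.3.3), without covariates. A standard error is the log2 fold change divided by the root of F; log2 CPM has a prior count of 2. On simulated counts for the 12500 loci, 81% of 200 genes changed by 1 on the log2 scale and 43% of those changed by 0.5 were recovered, with 6.90% and 5.49% false calls. Only 200 loci were changed there, against 4589 that passed in the data, so these rates do not give the power for the members. Positions and GC content (longest coding transcript, or the longest where none is coding) come from GENCODE M21, which types Ifi30 as a processed transcript. The named genes are the members, genes of the pathway lists that passed or define their list, and the 5 loci nearest to H2-Ab1. Marker genes and genes with the X box letters are named as well. Among named genes, the alternatives below were read for the members and the pathway genes only. Alternatives were DESeq2 1.42.0, limma 3.58.1 with sample weights, other scalings, filters and sample sets, a replicate block, and a GC and length curve (mgcv 1.9.3) on the 97.5% of tested loci with both values. Some genes of the lists are counted but not reported here by name.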

Additional observations from a re-analysis of the deposited data

How the results depend on the processing

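Ifi30 was the 1 member lower in JHU083 in 11 of 13 alternatives and in all 10 fits that left out a sample; in the sets of 5 samples with the ribosomal loci listed at 0 and above 0 the count was 0. Members higher in JHU083 numbered 1 (Lgmn) with DESeq2, with sample weights, without the 2 ribosomal loci and with their status as a covariate, and 2 (Lgmn and H2-Aa) with GC content and length removed, alone or with the replicate block. Over all loci the sets of 5 samples gave 532 higher and 586 lower, and 1274 higher and 1545 lower; scaling to library size only moved the calls from 2296 higher and 2293 lower to 1564 and 3141. With the replicate block 1612 loci were higher and 1757 lower, and 0 and 1 members; numbers do not pair the samples (mean correlation of same-numbered samples -0.19, 0 of 5 pairs over 0.1, 0 of 5 matched best with their own number). The other results that changed sign had not passed the threshold, and the cause was not tested. With GC content and length removed, without and with the replicate block, H2-Ab1 was 0.084 and 0.078, H2-DMa 0.053 and 0.053, H2-DMb2 0.015 and 0.012, Cd74 0.19 and 0.19, Rfxap 0.054 and 0.053, and Spi1 0.048 and 0.046. In the samples with the loci at 0, H2-DMa was 0.037, H2-DMb1 0.045, H2-DMb2 0.012, Cd74 0.085 and Spi1 0.011; in the others H2-Eb1 was -0.018 and Rfx5 0.10. Library-size scaling gave H2-Eb1 -0.038 and Ciita -0.0052, the covariate Cd74 0.012 and sample weights Rfx5 0.028. With 1 sample left out, Cd74 ranged from -0.084 to 0.045, H2-Eb1 from -0.0089 to 0.11, Ciita from -0.0037 to 0.14, Rfx5 from -0.075 to 0.058 and Rfxap from -0.049 to 0.0083. Of 230 comparisons for members, 198 kept direction and call, 22 changed sign, 8 gained and 2 lost the call; of 552 for the other named pathway genes, 479 kept both, 55 lost the call, 10 changed sign and 8 gained it.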

Other observations

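The chains of I-E also shifted against each other, a comparison chosen after the values were seen. The log2 ratio of H2-Ea-ps to H2-Eb1 was -0.72 to -0.55 in the vehicle samples and -0.37 to -0.27 in the JHU083 samples, without overlap, a difference of 0.35. With the GC and length curve removed, the difference between the 2 log2 fold changes was 0.28; the transcripts hold 47.0% and 51.8% GC.

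The 20 RefSeq promoter windows with a match to the X box letters belong to 18 genes, 3 of them members, and 9 of the 18 also hold ATTGG. Of the other genes with both, Nubp2 (log2 difference -0.26, edgeR adjusted p = 0.059), Spsb3 (-0.08, adjusted p = 0.671) and Tsr2 (-0.06, adjusted p = 0.703) were tested. Of those without ATTGG, Slc39a10, which encodes a zinc transporter, was tested and fell (-0.83, adjusted p = 0.000446). Nubp2 and Spsb3 lie on opposite strands of chromosome 17 with overlapping windows, so that 1 match can serve both.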
